A study of Mus musculus with 24 samples.

Results

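Messenger RNA of 32 genes that carry calcium ions across the membranes of brain cells was followed in mouse hippocampus, cortex and cerebellum after removal of the olfactory bulbs. The genes were taken as a fixed list of symbols, matched to the Ensembl identifiers of the count tables, and all 32 were found among the 55487 genes listed there. The list was chosen with earlier results of these data known. Its counts and medians beside those of all genes therefore describe the list and are no test of it. They fall into 10 kinds by role: 5 pore-forming subunits of high-voltage calcium channels, 3 of T-type channels, 4 beta and 4 alpha2delta auxiliary subunits, 4 plasma membrane calcium pumps, 2 pumps of the endoplasmic reticulum, 3 IP3 receptors, 3 ryanodine receptors, 3 sodium-calcium exchangers, and the sodium leak channel Nalcn. Nalcn conducts mainly sodium and belongs to the same superfamily as the channel pores. All animals were wild-type by genotype. Each tissue came from mice with olfactory bulbectomy, a surgical model in which the bulbs are removed, or from mice that were operated on as shams. Poly(A) RNA was sequenced in 24 libraries. Every tissue had 5 sham libraries, while bulbectomy was represented by 4 libraries in hippocampus, by 3 in cortex (numbered 1, 2 and 4) and by 2 in cerebellum. The labels give no strain, age, sex or time after surgery, and do not say whether the replicates of a group were separate animals, so p-values measure the spread between these samples, which may be technical.

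Calcium enters neurons through voltage-gated channels, whose pore subunit sets the type of current while the beta and alpha2delta subunits control how much channel reaches the membrane and how it gates. IP3 receptors and ryanodine receptors release calcium from the endoplasmic reticulum, the first on binding of inositol trisphosphate and the second on binding of calcium itself. Pumps of the plasma membrane (the Atp2b genes) and of the endoplasmic reticulum (the Atp2a genes), together with the sodium-calcium exchangers (the Slc8a genes), return the ion to the outside or to the store. Purkinje cells of the cerebellum are known for very high amounts of Itpr1.

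Reads assigned to genes numbered between 8145624 and 9608811 in the hippocampal libraries, other than sham 1 with 3255661 and sham 4 with 138963332. They numbered between 10073878 and 17052728 in cortex and between 10400540 and 20230673 in cerebellum. Cerebellar identity was visible in the sham libraries, where 10 of 10 Purkinje cell markers (Itpr1 is one of them) were lower in hippocampus and in cortex than in cerebellum. Of 10 dentate granule cell markers 4 were higher in hippocampus than in cortex and none lower, and of 12 cortical layer markers 4 were lower and none higher. Hippocampal sham 1 and sham 2 stood apart: the 15 markers of striatal medium spiny neurons summed to 3316 and 4407 CPM (reads scaled to the size of the library) there and to between 369 and 643 in the other 7 hippocampal libraries, with no marker of that list at 0 in any of them. Cerebellar sham 1 also stood apart. There the 32 genes took 0.997% of all assigned reads, against 0.275% to 0.499% in the other 4 cerebellar shams. Where leaving out these libraries changed a call or moved a called value by over 1.5 times, this is stated with the result. Because the tissue was sequenced in bulk, fewer cells of a type and less RNA per cell cannot be told apart in any value below.

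All 32 genes passed the filter on low counts in every comparison. They are long: their median exon length was 10777.5 bases against 4420 for the genes tested in hippocampus, and 17 of the 32 had 10000 bases or more. Their loci lie on 15 chromosomes, and 23 span over 100 kb of genome.

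Sequences before an annotated start are shown for 3 of the 4 genes that were lower after bulbectomy in hippocampus. Atp2a3, the gene with the largest difference between sham tissues, is shown as well. They come from RefSeq on build GRCm38.p6, whose promoter table matched 24 of the 32 genes with 35 start sites. Each is the 250 bases before the annotated start, written 5' to 3' on the strand of the gene: Atp2b4 at chr1:133753748-133753997 on the minus strand, Cacna1c at chr6:119196410-119196659 on the minus strand (the outermost of 3 starts), Nalcn at chr14:123627145-123627394 on the minus strand and Atp2a3 at chr11:72960919-72961168 on the plus strand. The only start of Atp2b4 in that table lies inside its locus (chr1:133699457-133801041) and not at the 5' end. Its window is therefore sequence from within the locus, and whether transcription starts there was not tested. Capitals mark matches to the GC box GGGCGG and to the cyclic AMP response element half-site TGACG, on either strand.
Atp2b4: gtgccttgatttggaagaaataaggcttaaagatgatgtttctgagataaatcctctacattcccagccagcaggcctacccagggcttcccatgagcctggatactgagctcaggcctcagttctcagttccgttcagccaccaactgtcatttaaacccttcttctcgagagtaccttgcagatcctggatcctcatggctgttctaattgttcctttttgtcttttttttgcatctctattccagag
Cacna1c: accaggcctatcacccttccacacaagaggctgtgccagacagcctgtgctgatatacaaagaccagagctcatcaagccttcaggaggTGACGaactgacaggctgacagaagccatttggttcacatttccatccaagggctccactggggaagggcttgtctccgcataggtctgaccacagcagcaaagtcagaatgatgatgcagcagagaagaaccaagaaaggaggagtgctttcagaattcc
Nalcn: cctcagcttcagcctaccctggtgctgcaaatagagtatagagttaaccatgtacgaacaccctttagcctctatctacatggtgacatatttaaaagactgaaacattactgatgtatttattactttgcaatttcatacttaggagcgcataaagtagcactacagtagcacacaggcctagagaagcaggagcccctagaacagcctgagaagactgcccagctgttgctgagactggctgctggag
Atp2a3: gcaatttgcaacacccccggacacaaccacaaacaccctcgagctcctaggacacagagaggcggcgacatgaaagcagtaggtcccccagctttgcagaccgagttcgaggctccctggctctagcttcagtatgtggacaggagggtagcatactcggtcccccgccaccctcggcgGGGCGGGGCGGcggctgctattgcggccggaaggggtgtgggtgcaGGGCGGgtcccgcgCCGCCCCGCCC
The Atp2a3 promoter held 5 matches to the GC box, counting overlapping ones, and 20 CpG dinucleotides at 66.8% GC. The other sequences held no GC box and 2 CpG dinucleotides each, and Cacna1c had 1 match to TGACG. Over all 35 start sites of these genes, 54.3% of promoters held GGGCGG or its complement, against 32.7% of 32851 promoters in the table. TGACG was held by 17.1% against 17.8%, the E-box CACGTG by 2.86% against 6.02%, and TATAAA by 2.86% against 12.4%. The median GC content was 63.2% against 52.4%. A match is a description of letters in the window, and nothing on binding follows from it.

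In hippocampus, 4 of the 32 genes were lower after bulbectomy and none was higher. These were the plasma membrane pumps Atp2b3 and Atp2b4, the L-type channel pore Cacna1c and the sodium leak channel Nalcn, and each fell by between 0.96 (Cacna1c) and 1.44 (Atp2b3) on the log2 scale. Over all 13985 genes tested, 1.0% were lower and 0.551% higher at the same threshold, an adjusted p under 0.05 in edgeR's quasi-likelihood test with Benjamini-Hochberg adjustment over all genes. Log2 fold changes are given as bulbectomy minus sham with their standard error, and levels as CPM scaled within the tissue.

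Atp2b3, on chromosome X (ENSMUSG00000031376, chrX:73503086-73571005, build mm10), encodes a calcium pump found mainly in neurons. It measured 34.1, 30.1, 34.0 and 26.9 CPM in bulbectomy 1 to 4, and 107, 39.7, 94.8, 112 and 71.2 CPM in sham 1 to 5. Every bulbectomy library was below every sham library, with sham 2 nearest to them. The means were 31.3 ± 3.48 (SD, n = 4) and 84.8 ± 29.7 CPM (SD, n = 5), which makes a log2 fold change of -1.44 ± 0.26 (edgeR adjusted p = 0.0180). Without sham 1 and sham 2 the log2 fold change was -1.57. Atp2b4 (ENSMUSG00000026463, chr1:133699457-133801041), the pump isoform that is also widely expressed outside the brain, measured 34.2, 37.8, 40.4 and 52.8 CPM after bulbectomy and 85.1, 77.2, 90.9, 94.1 and 58.9 CPM in shams. Its groups did not overlap either, and the margin was set by bulbectomy 4 and sham 5. The means were 41.3 ± 8.09 (SD, n = 4) and 81.2 ± 14.1 CPM (SD, n = 5), and the log2 fold change was -0.98 ± 0.18 (edgeR adjusted p = 0.0244). The 2 other pumps of the plasma membrane did not pass the test. Atp2b1, the most widely expressed isoform, had a log2 fold change of 0.42 ± 0.22 (edgeR adjusted p = 0.307), and Atp2b2, which is needed in cochlear hair cells and Purkinje cells, had 0.15 ± 0.19 (edgeR adjusted p = 0.686).

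Cacna1c (ENSMUSG00000051331, chr6:118587240-119196418) encodes Cav1.2, the main L-type pore of the forebrain. Its levels were 10.4, 10.8, 12.2 and 13.6 CPM after bulbectomy and 22.2, 18.2, 23.0, 30.4 and 19.9 CPM in shams. The groups did not overlap. The log2 fold change was -0.96 ± 0.20 (edgeR adjusted p = 0.0338), from means of 11.7 ± 1.48 (SD, n = 4) and 22.7 ± 4.68 CPM (SD, n = 5). The 4 other high-voltage pores all had negative log2 fold changes without passing the test: Cacna1d, the second L-type pore, -0.55; Cacna1b, the N-type pore of nerve terminals, -0.54; Cacna1e, the R-type pore, -0.30; and Cacna1a, the P/Q-type pore, -0.19. Nalcn (ENSMUSG00000000197, chr14:123276634-123627144), which carries the background sodium leak that helps set the resting potential, measured 17.0, 10.7, 11.1 and 13.0 CPM after bulbectomy and 35.0, 16.9, 23.4, 37.7 and 27.0 CPM in shams. Its groups met: sham 2 lay just under bulbectomy 1. The log2 fold change was -1.11 ± 0.25 (edgeR adjusted p = 0.0423), from means of 13.0 ± 2.89 (SD, n = 4) and 28.0 ± 8.46 CPM (SD, n = 5).

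**Figure D1:**
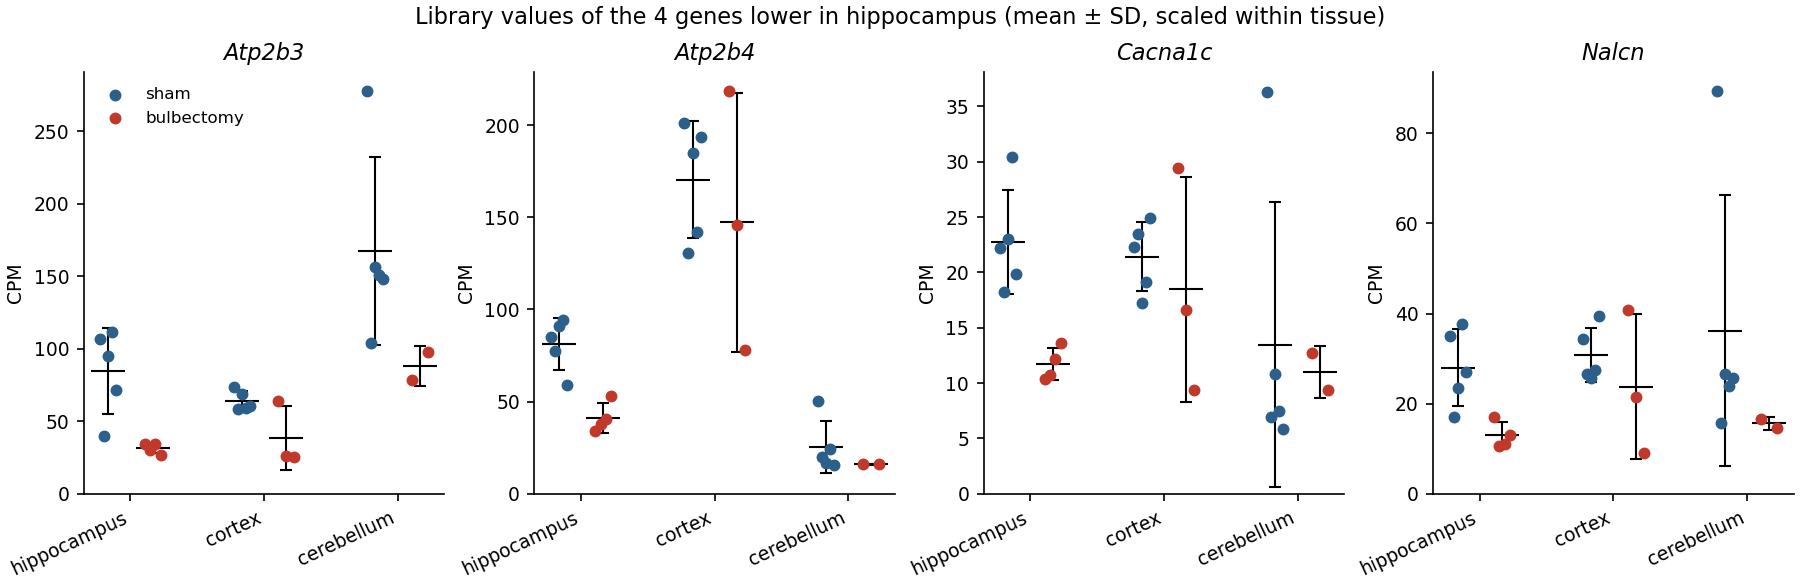
CPM of Atp2b3, Atp2b4, Cacna1c and Nalcn in each library (points), with the group mean and SD (bars), for sham (blue) and bulbectomy (red) in 3 tissues. The axes start at 0 and values are scaled within a tissue, so levels are compared within a tissue only. In hippocampus the bulbectomy points of Atp2b3, Atp2b4 and Cacna1c lie below all sham points, while in cortex bulbectomy 1 lies within or above the shams and in cerebellum 1 sham library lies far above the rest.

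Among the release channels and store pumps no gene passed the test in hippocampus, although Itpr1 had a larger log2 fold change than any of the 4 above. The genes of this and the next paragraph that are given by library were chosen after their values were seen. Itpr1, the IP3 receptor of neurons, measured 91.6, 63.9, 67.8 and 86.2 CPM after bulbectomy. In sham 1 to 5 it measured 518, 227, 174, 245 and 107 CPM. The groups did not overlap, yet the shams differed among themselves by more than 4 times, and the log2 fold change was -1.71 ± 0.39 (edgeR adjusted p = 0.0567). Of the libraries with high striatal markers, sham 1 held the highest Itpr1, while sham 2 at 227 CPM lay below sham 4 at 245 CPM. Without sham 1 and sham 2 the log2 fold change was -1.18 and the edgeR adjusted p 0.0269. Ryr3, a ryanodine receptor enriched in hippocampus, measured 3.92, 2.01, 6.86 and 5.57 CPM against 11.7, 9.91, 11.9, 14.8 and 4.50 CPM in shams, where sham 5 lay within the bulbectomy range. Its log2 fold change was -1.21 ± 0.38 (edgeR adjusted p = 0.107). Ryr1, the skeletal muscle isoform, had -1.26 ± 0.41 (edgeR adjusted p = 0.121), and -0.71 without sham 1 and sham 2. Ryr2, the cardiac isoform and the most abundant in brain, had -0.76 ± 0.27 (edgeR adjusted p = 0.138). The store pump Atp2a2 (SERCA2) did not overlap between the groups, with 351, 323, 342 and 338 CPM against 544, 355, 561, 593 and 440.4 CPM; its log2 fold change was -0.56 ± 0.17 (edgeR adjusted p = 0.107).

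The auxiliary subunits were not called. Cacna2d1, an alpha2delta subunit that binds gabapentin, had the largest change among them, at -0.94 ± 0.26 on the log2 scale (edgeR adjusted p = 0.0760). It measured 13.0, 9.83, 10.7 and 16.3 CPM after bulbectomy and 21.9, 15.4, 17.6, 33.1 and 31.0 CPM in shams. Bulbectomy 4 lay above sham 2, and the groups overlapped there. Of the beta subunits, Cacnb3 and Cacnb1 had positive values of 0.32 and 0.24, Cacnb2 -0.11 and Cacnb4 -0.61. The T-type pores lay between -0.24 (Cacna1h) and 0.11 (Cacna1g), and the sodium-calcium exchangers between -0.57 (Slc8a1) and -0.05 (Slc8a2).

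Over all 32 genes in hippocampus, a list chosen with earlier results of these data known, 25 log2 fold changes were negative and 7 positive. Their median was -0.30 against 0.02 over all genes tested, of which 51.6% were positive. At an unadjusted p under 0.05 there were 12 of the 32, all of them lower. Of all 13985 genes tested, 2794 had such a p, in either direction. The groups did not overlap for 5 genes, all lower (Atp2b3, Atp2b4, Cacna1c, Itpr1 and Atp2a2), where 4.86% of all genes tested were lower in this way and 4.96% higher. Long genes as a class moved in the same direction. The 1379 tested genes with 10000 exon bases or more that are not on the list had a median of -0.25, and 2.61% of them were lower. The 17 listed genes of that length had a median of -0.57 and the 15 shorter ones -0.27. Split by the GC content of the transcript instead, the 15 listed genes under 50% had -0.57 and the 17 at 50% and over -0.24. After each library's trend over exon length and GC content was removed, Atp2b3 (-1.51), Atp2b4 (-0.73) and Cacna1c (-0.76) still passed the edgeR test with adjusted p of 0.0233, 0.0264 and 0.0241. Nalcn had -0.75 and an adjusted p of 0.0508, and Itpr1 entered with -1.42 and 0.0412 in the same fit. Over the 17 alternative fits the adjusted p ran from 3.72e-05 to 0.0959 for Atp2b3, from 0.000189 to 0.10 for Atp2b4, from 0.00106 to 0.196 for Cacna1c, and from 0.00239 to 0.152 for Nalcn. The low end came from DESeq2 each time. Atp2b3 was called in 12 of those 17, Atp2b4 in 13, Cacna1c in 9 and Nalcn in 6.

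**Figure D2:**
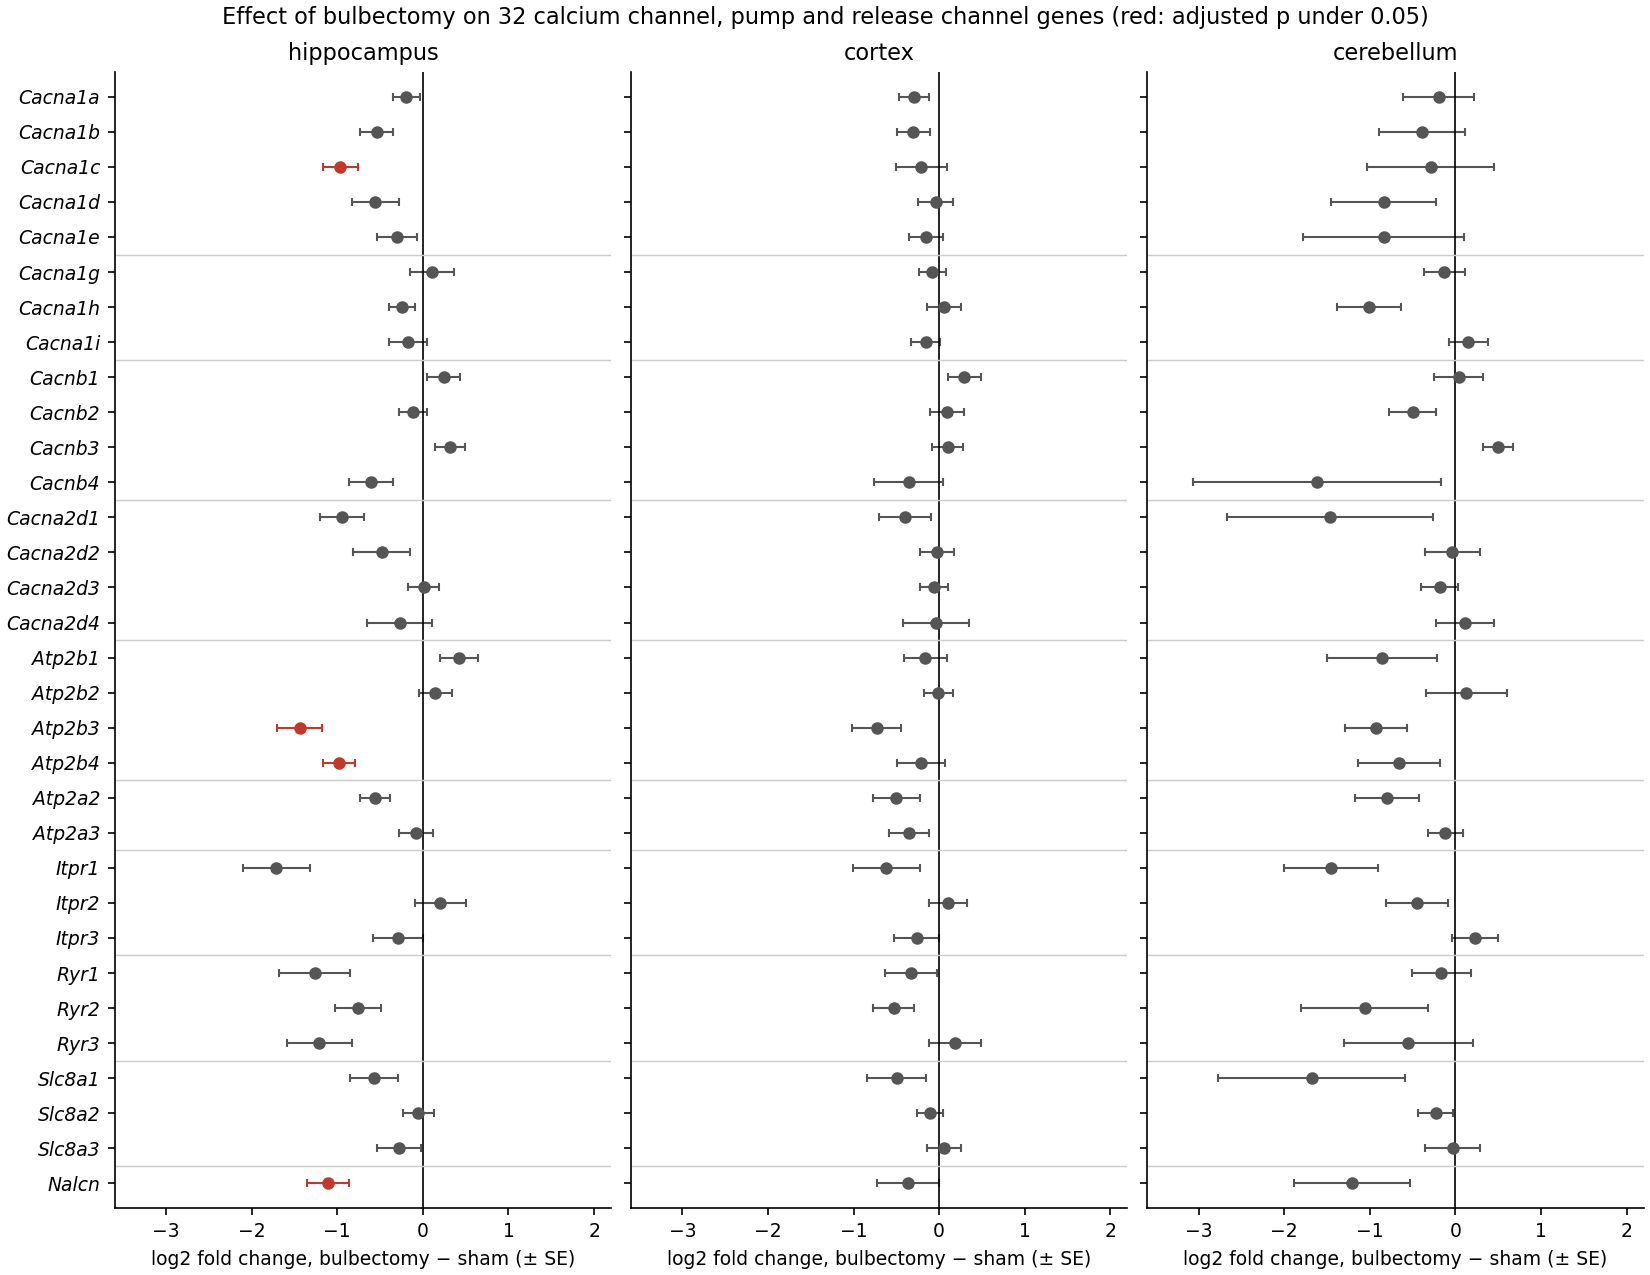
Log2 fold change (bulbectomy minus sham, points) with its standard error (bars) for the 32 genes in hippocampus, cortex and cerebellum, ordered by role from channel pores at the top to Nalcn at the bottom. Red points passed an adjusted p under 0.05, which 4 genes did in hippocampus and none did in cortex or cerebellum.

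Which genes passed in hippocampus changed as single libraries were left out. None of the 4 genes was called without bulbectomy 1 or without bulbectomy 2. Without bulbectomy 3 only Atp2b3 was, and without bulbectomy 4 or sham 4 only Atp2b4 was. Without sham 3, Atp2b3 and Atp2b4 were called. Without sham 1, Nalcn was lost and Itpr1 gained. Without sham 2 the 4 were joined by Atp2a2 and Cacna2d1, and without sham 5 by Itpr1, Ryr1 and Ryr3. In all 9 of these fits the log2 fold changes stayed negative, between -1.62 and -1.36 for Atp2b3, -1.15 and -0.89 for Atp2b4, -1.09 and -0.87 for Cacna1c, and -1.27 and -1.01 for Nalcn. With sham 1 and sham 2 both left out, all 4 remained and Cacna2d1 and Itpr1 were added. With the replicate number as a block, Atp2b4 (-1.09) and Itpr1 passed, and Atp2b3 (-1.40), Cacna1c (-0.99) and Nalcn (-1.08) had edgeR adjusted p of 0.0589, 0.0659 and 0.0618. Markers of neighbouring tissue also moved in this comparison. Of 15 tested thalamus and habenula markers, 13 had positive log2 fold changes, 4 passed the test as higher and the median was 1.02. Their summed level was 426 to 737 CPM after bulbectomy, with none at 0, and 146 to 532 CPM in shams, with up to 2 at 0. Of 15 striatal markers, 14 had negative values, none passed and the median was -2.0. Of the other marker lists, 2 of 11 CA pyramidal cell markers and 1 of 10 astrocyte markers were called higher, and 1 of 12 cortical layer and 1 of 10 inhibitory interneuron markers lower. Mitochondrial genes took 8.33% to 10.8% of reads in the bulbectomy libraries, 13.3% in sham 1 and 4.84% to 7.19% in the other 4 shams. The part of these tissues, cells and reads in the values above was not tested, other than by leaving out sham 1 and sham 2.

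In cortex none of the 32 genes passed the edgeR test, and of all 14847 genes tested 0.0202% did. At an unadjusted p under 0.05 there were 877 genes, of which 2 were on the list, and DESeq2 called 39 genes and none of the list. The 4 genes with the smallest p were Atp2b3, Ryr2, Atp2a2 and Cacna1a. Atp2b3 measured 64.2, 25.9 and 25.3 CPM in bulbectomy 1, 2 and 4 and 73.7, 58.2, 68.9, 58.9 and 60.5 CPM in sham 1 to 5. Bulbectomy 1 sat among the shams, while bulbectomy 2 and 4 were far below them. The log2 fold change was -0.73 ± 0.28 (edgeR adjusted p = 0.770). Ryr2 showed the same split, with 67.6, 46.8 and 30.6 CPM against 80.9, 81.3, 61.2, 59.7 and 67.3 CPM, which makes -0.53 ± 0.24 on the log2 scale (edgeR adjusted p = 0.811). Atp2a2 measured 633, 447 and 237 CPM against 763, 474, 618, 554 and 694 CPM, with -0.50 ± 0.27 (edgeR adjusted p = 0.851). Cacna1a measured 63.1, 48.1 and 48.3 CPM against 78.0, 69.3, 61.0, 55.2 and 62.3 CPM, with -0.29 ± 0.17 (edgeR adjusted p = 0.861). In each of the 4, bulbectomy 1 was the highest of its group and lay within the sham range.

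Leaving out cortical bulbectomy 1 changed the count. Atp2b3 (-1.32, edgeR adjusted p = 0.00491), Itpr1 (-1.34, adjusted p = 0.0440) and Ryr2 (-0.86, adjusted p = 0.0483) then passed as lower, along with 573 genes in all. That fit rests on 2 bulbectomy libraries. Over the alternatives of the comparison, the adjusted p of Atp2b3 reached 1.0, and no gene of the list was called in any other. Of the 32 log2 fold changes in cortex 25 were negative, while 50.8% were positive over all genes tested. The median of the 32 was -0.16 against 0.01 over all genes and -0.12 over the 1413 other long genes. The 17 listed genes of that length had a median of -0.21 and the 15 shorter ones -0.11. Split by the GC content of the transcript, the 15 listed genes under 50% had -0.21 and the 17 others -0.11. No listed gene separated the groups without overlap, where 1.44% of all genes were lower and 2.2% higher in that way. The largest positive value was that of Cacnb1, the beta subunit shared with skeletal muscle, at 0.29 ± 0.19 (edgeR adjusted p = 0.875).

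In cerebellum, with 2 bulbectomy libraries, none of the 32 passed the edgeR test and 0.0131% of 15295 genes did. At an unadjusted p under 0.05 there were 454 genes, of which 4 were on the list, and DESeq2 called 12 genes and none of the list. The 4 genes with the smallest p were Cacnb3, Cacna1h, Itpr1 and Atp2b3, with edgeR adjusted p of 1.0 for each. Cacnb3, a beta subunit found with N-type channels, measured 112 and 107 CPM after bulbectomy and 63.4, 88.6, 80.0, 74.4 and 82.5 CPM in shams. Both bulbectomy libraries lay above all shams, and the log2 fold change was 0.50 ± 0.18. Cacna1h, a T-type pore, was low throughout, with 2.34 and 3.03 CPM against 4.44, 5.98, 7.42, 4.95 and 4.38 CPM, a difference of -1.01 ± 0.38 on the log2 scale. Here too the groups did not overlap. Itpr1 measured 808 and 610.3 CPM against 4049, 1069, 1856, 1322 and 1396 CPM. Its log2 fold change was -1.45 ± 0.55 with sham 1 and -1.0 without it (edgeR adjusted p = 0.113; 0.113 to 1.0 over the alternatives). Atp2b3 measured 78.2 and 98.0 CPM against 278, 104, 156, 151 and 148 CPM. Its log2 fold change was -0.93 ± 0.37 with sham 1 and -0.68 without it.

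The groups did not overlap for 6 listed genes in cerebellum. Cacnb3 was higher (5.97% of all genes were), and Cacna1h, Cacnb2, Atp2b3, Atp2a2 and Itpr1 were lower (4.93% of all genes were). Of the 32 log2 fold changes 26 were negative, with a median of -0.42 against -0.06 over all genes tested. Over all those genes 42.8% were positive. The median of the 1398 other long genes was also -0.42, but only 17 of the 32 are of that length. Those 17 had a median of -0.66 and the 15 shorter ones -0.12. Split by the GC content of the transcript instead, the 15 listed genes under 50% had a median of -0.84, all negative. The 17 at 50% and over had -0.12. Without sham 1 the median of the 32 was -0.11 and 19 were negative. The values over all genes in that fit are not given here. In simulated counts with these group sizes and 15295 genes, the test recovered 1% of 100 genes changed by 1 on the log2 scale and 25% of 100 changed by 2. In hippocampus, with 13985 genes, it recovered 36% and 82%, and in cortex, with 14847 genes, 30% and 81%. Unchanged genes called numbered 0 in cerebellum, 9 in hippocampus and 7 in cortex. Counts were drawn gene by gene with no shift shared within a library, and the changed genes were picked at random from those tested. The recovered shares are therefore not those of the 32 genes in these libraries.

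**Figure D3:**
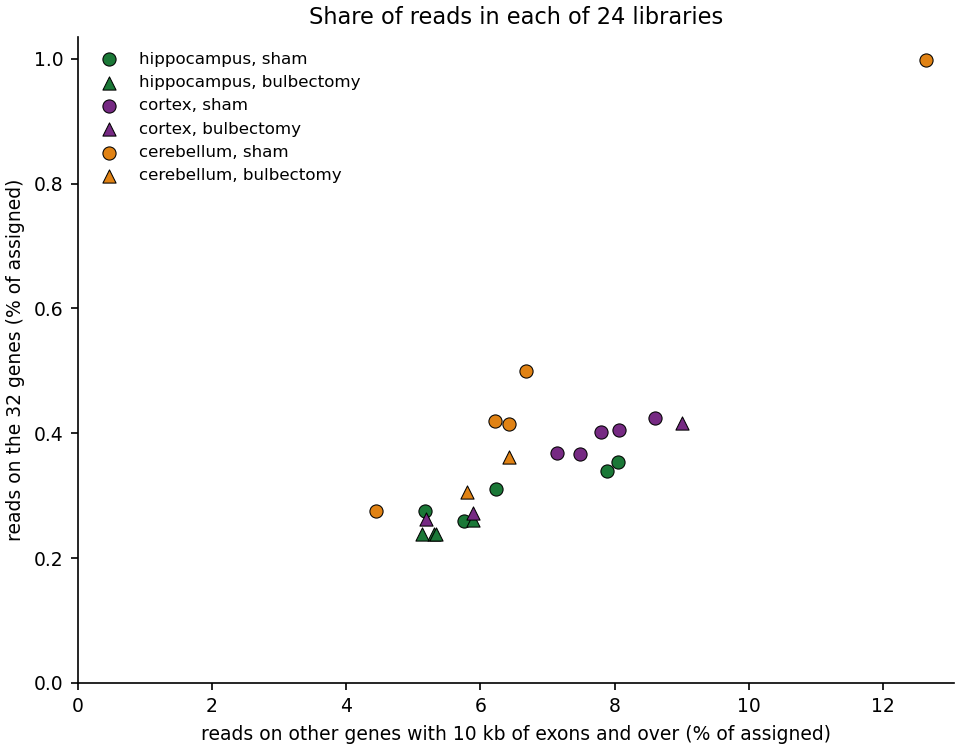
Share of assigned reads on the 32 genes (vertical axis, %) against the share on the 1553 other genes with 10 kb of exons or more (horizontal axis, %), 1 point per library, coloured by tissue with circles for sham and triangles for bulbectomy. Cerebellar sham 1 stands alone at 12.6% and 0.997%, and cortical bulbectomy 1 (9.01% and 0.416%) lies with the cortical shams while the other cortical bulbectomy libraries lie at 5.19% to 5.89% and 0.262% to 0.272%.

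The share of reads on the 32 genes was set beside the share on other long genes, without a measure of their relation. Both were highest in cerebellar sham 1, but they did not always move together. Hippocampal bulbectomy 4 had 5.89% on other long genes and 0.261% on the 32, and hippocampal sham 2 had 5.18% and 0.276%. In hippocampus the 4 bulbectomy libraries gave between 0.238% and 0.261% of their reads to the 32 genes, and the 5 shams between 0.259% and 0.354%. Other long genes took 5.13% to 5.89% after bulbectomy and 5.18% to 8.05% in shams. The ranges for the long genes overlap, and for the 32 genes they overlap only through sham 5 and bulbectomy 4. The part of this share in the differences above was not tested beyond the fit with the length and GC trend removed.

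Whether the effect of bulbectomy differed between tissues was tested directly over all 24 libraries. No gene of the 32, and 0.0% of the 16564 genes tested, passed in any of the 3 differences by edgeR. At an unadjusted p under 0.05 there were 466 genes for hippocampus minus cortex (1 on the list), 511 for hippocampus minus cerebellum (3 on the list) and 276 for cortex minus cerebellum (2 on the list). DESeq2 called 3, 2 and 0 genes. For hippocampus minus cortex the smallest p on the list was that of Ryr3, with a difference of -1.44 ± 0.60 in log2 fold change, and Atp2b4 had -0.80 ± 0.40. For cortex minus cerebellum it was Cacna1h, with 1.06 ± 0.34. All had edgeR adjusted p of 1.0. The hippocampal calls were therefore not shown to be particular to hippocampus.

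Between sham tissues the 32 genes were spread far more widely. Compared per kilobase of exon (RPKM), the store pump Atp2a2 stood first in every tissue, with 88.2 ± 18.7 RPKM in hippocampus, 108 ± 19.4 in cortex and 133 ± 47.4 in cerebellum (SD, n = 5 each). The ranks below it differed. Hippocampus had Slc8a2, the brain sodium-calcium exchanger, at 76.5 ± 14.1 RPKM and Cacnb3 at 67.6 ± 13.6. Cortex had Cacnb3 at 105 ± 12.4 and Slc8a2 at 80.9 ± 10.9. Cerebellum had Itpr1 at 97.8 ± 55.1 and Atp2a3 (SERCA3) at 57.1 ± 11. At the low end, Cacna2d4, Ryr1 and Ryr3 were under 1 RPKM in all 3 tissues, down to 0.0791 ± 0.0611 RPKM for Ryr3 in cerebellum.

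**Figure D4:**
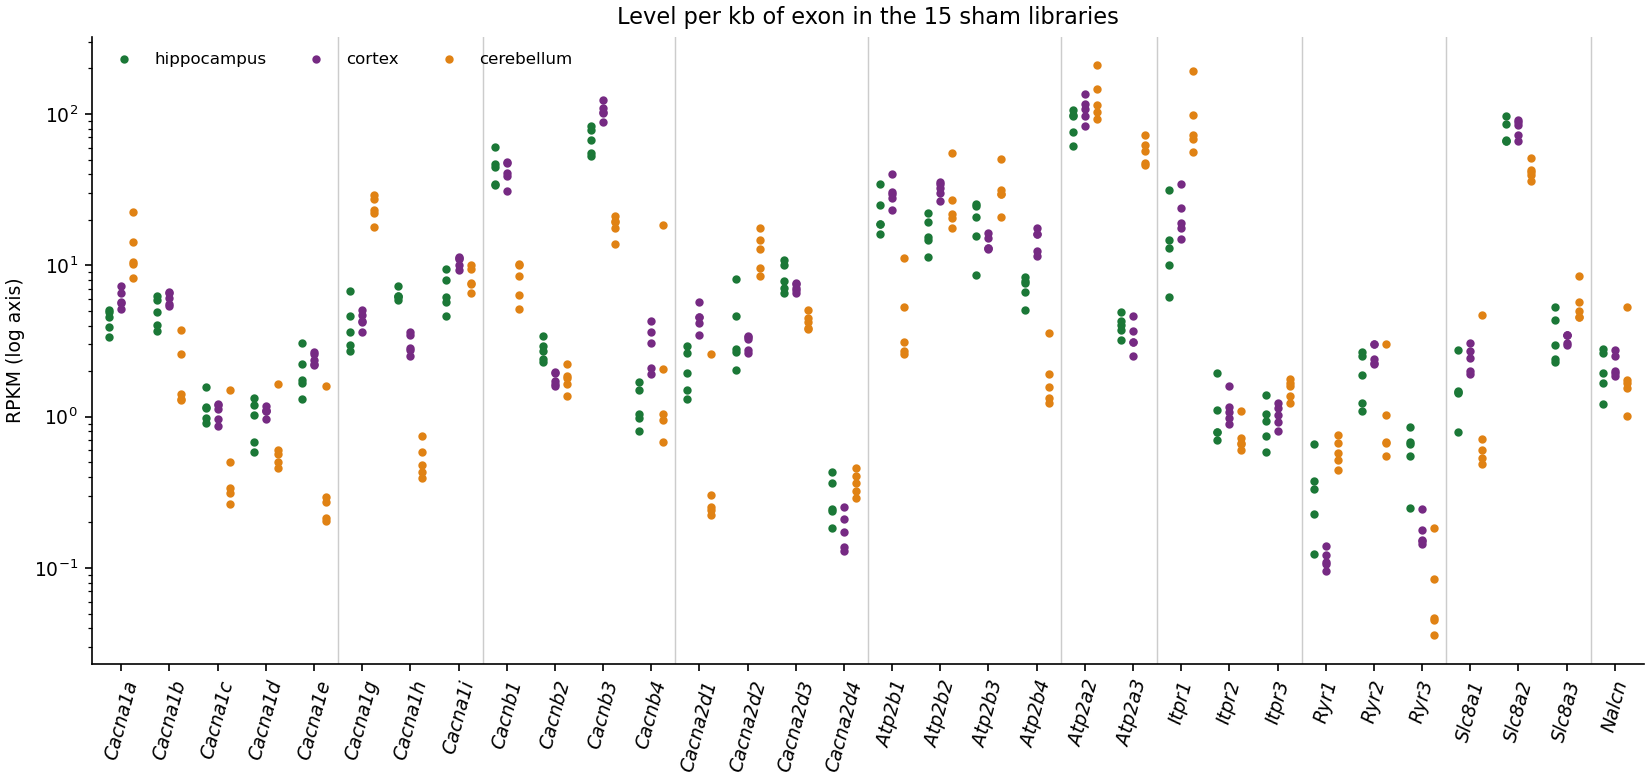
RPKM (log axis) of the 32 genes in the 15 sham libraries, 1 point per library, coloured by tissue and ordered by role. Atp2a3, Cacna1g and Itpr1 are highest in cerebellum, and Cacnb1, Cacnb3, Atp2b1, Atp2b4 and Cacna1h are lowest there, while the high orange points of Cacna1e, Cacna2d1 and Slc8a1 are all cerebellar sham 1.

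Of the 32 genes, 20 differed between hippocampus and cerebellum at an edgeR adjusted p under 0.05, with 11 higher and 9 lower in hippocampus. Over all 15142 genes tested 28.4% differed, 15.5% higher and 12.9% lower. Between cortex and cerebellum 21 differed, with 12 higher and 9 lower in cortex, against 34.7% of all genes (16.8% higher and 17.9% lower). Both comparisons use the same cerebellar libraries. Between hippocampus and cortex 6 differed, with 4 higher and 2 lower in hippocampus, against 3.3% of all genes (2.09% higher and 1.21% lower). Libraries did not overlap at all for 14 genes between hippocampus and cerebellum, 9 higher and 5 lower in hippocampus (9.97% and 8.38% of all genes). For cortex against cerebellum this held for 10 genes in each direction (13.1% and 12% of all genes), and for hippocampus against cortex for 3 higher and 6 lower (3.18% and 3.61%). For the genes named below, CPM is scaled over the 15 shams and the spread is the standard error of the log2 difference.

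The largest difference on the list was that of Atp2a3. This store pump, known in Purkinje cells, measured 250.5, 301, 385, 245 and 328 CPM in cerebellar sham 1 to 5. It measured 17.0, 25.9, 19.7, 22.7 and 21.4 CPM in hippocampus and 13.3, 24.4, 16.4, 19.5 and 16.5 CPM in cortex. The lowest cerebellar library was over 9 times the highest of any other tissue, with log2 differences of -3.81 ± 0.20 for hippocampus minus cerebellum and -4.06 ± 0.20 for cortex minus cerebellum (edgeR adjusted p = 8.42e-10 and 4.08e-10). Itpr1 followed the same direction, at -2.70 ± 0.43 and -2.15 ± 0.42 (edgeR adjusted p = 0.000126 and 0.000689). Cacna1g, the T-type pore of Purkinje and deep nuclear cells, measured 278, 224, 295, 181 and 237 CPM in cerebellum against 27.4, 36.7, 68.7, 30.2 and 46.9 CPM in hippocampus and 51.3, 47.4, 43.4, 36.6 and 42.8 CPM in cortex. Its log2 differences were -2.53 ± 0.23 and -2.45 ± 0.23 (edgeR adjusted p = 3.63e-07 and 3.79e-07). Cacna2d2, the alpha2delta partner of the P/Q channel in Purkinje cells, was lower in hippocampus by -1.67 ± 0.32 and in cortex by -2.03 ± 0.32 (edgeR adjusted p = 0.000702 and 9.61e-05), and the P/Q pore Cacna1a by -1.60 ± 0.24 and -1.12 ± 0.23 (edgeR adjusted p = 6.55e-05 and 0.00121).

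Cacna1h ran the other way within the same T-type group. It measured 61.4, 61.6, 70.9, 60.0 and 58.0 CPM in hippocampus, 27.1, 33.9, 35.2, 27.8 and 24.5 CPM in cortex, and 3.86, 5.73, 7.24, 4.71 and 4.21 CPM in cerebellum. The 3 tissues did not overlap, in the order hippocampus, cortex, cerebellum. The log2 difference was 1.07 ± 0.17 for hippocampus minus cortex, 3.60 ± 0.19 for hippocampus minus cerebellum and 2.53 ± 0.18 for cortex minus cerebellum (edgeR adjusted p = 0.00327, 9.77e-10 and 2.21e-08). Cacna1i, the third T-type pore, was not called in any of the 3, and its log2 difference between hippocampus and cortex was -0.63 ± 0.18 (edgeR adjusted p = 0.0725). It passed as lower in hippocampus with DESeq2 (adjusted p = 0.0395), with the replicate block (edgeR adjusted p = 0.0307), and without cerebellar sham 1 (edgeR adjusted p = 0.0389), among others.

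Of the 4 beta subunits, Cacnb1 and Cacnb3 were higher in both forebrain tissues than in cerebellum, Cacnb2 was called higher in hippocampus and not called in cortex, and Cacnb4 was not called. Cacnb3 measured 212, 316, 334, 222 and 272 CPM in hippocampus, 441, 413, 492, 409.9 and 356 CPM in cortex, and 55.2, 84.9, 78.1, 70.7 and 79.2 CPM in cerebellum. It was higher than in cerebellum by 1.88 ± 0.17 in hippocampus and 2.52 ± 0.17 in cortex (edgeR adjusted p = 2.35e-07 and 9.85e-09), and lower in hippocampus than in cortex by -0.64 ± 0.16 (edgeR adjusted p = 0.0378). Cacnb1 measured 155, 202, 274, 153 and 210.2 CPM in hippocampus, 178, 214, 219, 183 and 141 CPM in cortex, and 23.3, 45.5, 46.3, 28.9 and 38.3 CPM in cerebellum. Its log2 differences to cerebellum were 2.45 ± 0.22 and 2.36 ± 0.22 (edgeR adjusted p = 3.35e-07 and 3.81e-07). As a share of the summed RPKM of the 32 genes, the 4 beta subunits took 27.4% ± 4.79 in hippocampus, 29.1% ± 2.68 in cortex and 6.69% ± 1.40 in cerebellum (SD, n = 5 each). The 2 store pumps took 21.8% ± 3.9, 21.5% ± 2.95 and 37.6% ± 2.57, and the 3 IP3 receptors 4.04% ± 2.38, 4.62% ± 1.27 and 18.6% ± 4.01. Cacnb4, the subunit lost in the lethargic mouse, was at 191 CPM in cerebellar sham 1 and at 6.26 to 19.5 CPM in the other 4 on the within-tissue scale. Its log2 difference between cortex and cerebellum was -0.64 ± 0.71 with that library and 1.32 ± 0.32 without it (edgeR adjusted p = 0.537 and 0.00206), so the direction turned. Between hippocampus and cerebellum it was -1.96 with it and 0.01 without it. Of its exon bases 16% overlap exons of the opposite strand.

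The makeup of the plasma membrane pumps differed between tissues. Per kilobase, Atp2b1 made up 34.8% ± 10.1 of the summed level of the 4 pumps in hippocampus, 33.3% ± 6.33 in cortex and 7.12% ± 3.22 in cerebellum. Atp2b2 made up 25.1% ± 3.81, 35.0% ± 3.44 and 41.0% ± 3.55, the largest mean share in cortex. Atp2b3 made up 29.2% ± 9.98, 15.5% ± 1.34 and 49.0% ± 5.31, and Atp2b4 10.9% ± 1.35, 16.2% ± 2.64 and 2.85% ± 0.664 (SD, n = 5 each). Atp2b4, which was lower after bulbectomy in hippocampus, measured 94.1, 81.4, 96.1, 103 and 61.8 CPM in hippocampus, 216, 141, 197, 152 and 198 CPM in cortex, and 43.7, 19.3, 16.2, 23.3 and 15.2 CPM in cerebellum. Hippocampal and cortical shams did not overlap, with a log2 difference of -1.05 ± 0.26 (edgeR adjusted p = 0.0307), and the differences to cerebellum were 1.89 ± 0.26 and 2.94 ± 0.27 (edgeR adjusted p = 3.47e-05 and 3.26e-07). Atp2b1 measured 287, 523, 380.3, 246 and 287 CPM in hippocampus, 425, 615, 464, 448 and 354 CPM in cortex, and 169, 81.0, 47.2, 39.8 and 41.5 CPM in cerebellum. It was higher than in cerebellum by 2.19 ± 0.37 and 2.61 ± 0.37 (edgeR adjusted p = 0.000228 and 3.81e-05).

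Each ryanodine receptor had its own distribution. Ryr2 made up 66.5% ± 9.36 of the summed RPKM of the 3 in hippocampus, 89.8% ± 2.18 in cortex and 58.3% ± 13.2 in cerebellum (SD, n = 5 each). Ryr3 made up 20.9% ± 2.78 in hippocampus, 6.15% ± 1.64 in cortex and 3.99% ± 0.767 in cerebellum. Its level was higher in hippocampus than in cortex by 1.78 ± 0.41 and than in cerebellum by 2.92 ± 0.43 (edgeR adjusted p = 0.0230 and 6.85e-05). Ryr1 measured 8.18, 14.3, 4.99, 7.27 and 2.69 CPM in hippocampus, 2.33, 2.39, 2.07, 3.04 and 2.66 CPM in cortex, and 12.5, 14.5, 16.4, 9.63 and 11.3 CPM in cerebellum. It was lower in cortex than in cerebellum by -2.36 ± 0.34 (edgeR adjusted p = 4.67e-05). Its log2 difference between hippocampus and cortex was 1.58 ± 0.34 (edgeR adjusted p = 0.0171), and its highest hippocampal values came from sham 2 and sham 1. Without those libraries it was 1.02 with an edgeR adjusted p of 0.0913. Of the 6 genes called between hippocampus and cortex only Cacna1h was still called without them (1.08, edgeR adjusted p = 0.00898). The log2 differences of the other 5 kept their sign, with Ryr3 at 1.75, Cacnb2 at 0.60, Cacnb3 at -0.62 and Atp2b4 at -1.06.

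The other calls against cerebellum are given by their log2 difference. Higher in both forebrain tissues were Cacna1b, Cacna1e, Cacna2d3 and Slc8a2, between 0.74 (Cacna2d3 in cortex) and 2.23 (Cacna1e in cortex) on the log2 scale. Lower in both were Atp2b3 (-0.77 and -1.20) and Slc8a3 (-0.72 and -0.79), another sodium-calcium exchanger. Cacnb2 was higher in hippocampus (0.63, and 0.25 without a call once the length and GC trend was removed), and Atp2b2 (-0.78) and Itpr3 (-0.70) were lower there. Cacna2d1 (2.64), Ryr2 (1.12) and Ryr3 (1.15) were higher in cortex, and Cacna2d4 (-1.03) was lower. Ryr2, Ryr3, Atp2b2, Atp2b3, Itpr3 and Slc8a3 were each lost in at least 1 fit that left out a library. Cacna1c, Cacna1d, Cacna1i, Cacnb4, Atp2a2, Itpr2, Slc8a1 and Nalcn were called in none of the 3 tissue comparisons with all 15 shams.

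Cerebellar sham 1 weighed on many of these values. Without it, 16 of the 32 were higher and 6 lower in hippocampus than in cerebellum, and 18 were higher and 9 lower in cortex. The shares of all genes given above belong to the fit with all 15 shams, and those of the fit without this library are not given here. These counts therefore do not show whether calls on the list changed more than calls over all genes. Cacna2d1 then stood at 4.11 ± 0.26 for cortex minus cerebellum and entered at 3.02 ± 0.25 for hippocampus minus cerebellum. Cacna1e moved to 3.27 in cortex and 3.03 in hippocampus, and Ryr2 to 1.79 in cortex with a call at 1.35 in hippocampus. Atp2b2 (-0.40), Atp2b3 (-0.56) and Slc8a3 (-0.54) were no longer called in hippocampus. Of the genes not called with all 15 shams, Cacna1c (1.71 in hippocampus and 1.58 in cortex), Cacna1d (0.84 and 1.01) and Slc8a1 (1.45 and 2.03) passed as higher than in cerebellum in both tissues. Cacnb4 and Itpr2 (0.76) passed as higher in cortex, as did Atp2b2 (0.53). In hippocampus against cortex, where the library only shares the fit, Cacna1i (-0.61), Cacnb4 (-1.31), Cacna2d1 (-1.10) and Atp2b2 (-0.92) joined the lower genes. The genes named here as passing did so at edgeR adjusted p between 6.93e-10 and 0.0389. Without hippocampal sham 1 and sham 2, Ryr1 (-1.34) entered as lower in hippocampus than in cerebellum, Atp2b3 (-0.65) was lost, Slc8a3 moved to -1.15 and Cacna2d2 to -2.33. With the replicate number as a block, Cacna1c (1.24), Cacna2d1 (2.10), Atp2a2 (-0.56) and Ryr1 (-0.90) also passed between hippocampus and cerebellum.

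Other genes of calcium signalling were counted from a separate list of 89 that holds channel partners, partners of the release channels, other pumps and mitochondrial uptake genes, calcium sensors and buffers, and calcium-dependent kinases and phosphatases. After bulbectomy in hippocampus 84 could be tested and 1 passed, against 1.55% of all genes. This was Kcnip1, a calcium-binding partner of potassium channels, at 26.8 ± 3.61 CPM (SD, n = 4) and 14.6 ± 2.78 CPM (SD, n = 5), a log2 difference of 0.89 ± 0.19 at edgeR adjusted p = 0.0385. The 4 bulbectomy libraries ranged from 21.9 to 30.5 CPM and the shams from 10.9 to 17.3 CPM, without overlap. The median of the 84 was -0.00, with 42 positive and 42 negative. Between sham tissues 85 were tested. In hippocampus against cortex 7 were higher and 6 lower, led by the sensor Hpca at 1.15 ± 0.15 and the buffer Calb2 at 1.83 ± 0.26. Over all genes 2.09% were higher and 1.21% lower there. Against cerebellum, 22 of the 85 were higher and 16 lower in hippocampus (15.5% and 12.9% of all genes). In cortex 29 were higher and 17 lower (16.8% and 17.9% of all genes). The kinase gene Camk2a was higher by 4.50 ± 0.22 in hippocampus and 5.12 ± 0.23 in cortex, and Calb2 was lower in cortex by -5.26 ± 0.30.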

How the data were processed

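The authors deposited 1 table of whole-number read counts per gene for each library, made with Trimmomatic, STAR, featureCounts and build mm10, per the submitters' processing notes. Versions, annotation and strand setting were not given in the sources used here. The kit kept strand, per the labels. Of 55487 identifiers, 55227 were found in GENCODE M21, which gave symbols, positions and exon lengths; the 12 assignment totals (reads on no gene or on several) in each table were left out of library sizes. Counts were fitted per tissue, over the 15 sham libraries, or over all 24 for differences between tissues, with edgeR 4.0.16 in R 4.3.3 (filterByExpr, TMM scaling, robust quasi-likelihood test, Benjamini-Hochberg adjustment over all genes); an adjusted p under 0.05 was a call. DESeq2 1.42.0, RLE scaling, no filter, a non-robust fit, removal of each library's length and GC trend, 1 fit of all libraries, a replicate block and leaving out libraries were the alternatives. The fits were tested on simulated data.

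After bulbectomy, called genes, or the 4 of smallest p where fewer than 4 were called, were given by library; between sham tissues the 8 of smallest p were, and of the other calcium genes up to 4 per comparison were named. The 32 genes, the gene lists and the markers were chosen with earlier results of these data known. Equal replicate numbers went together in hippocampal and cerebellar shams (correlation of deviations 0.278 to 0.513, over 0.1 in 5 of 5 pairs). Hippocampal and cortical shams had 4 of 5 pairs over 0.1, and so had cortical and cerebellar shams. Any pairing comes from these correlations and not from the labels, and the main fits left it out. With the block 24 of the 32 genes passed between sham hippocampus and cerebellum, and 5304 of all genes. In the comparisons of bulbectomy with sham, hippocampus had 0 of 4 pairs over 0.1, cortex 2 of 3 and cerebellum 2 of 2 (0.263 and 0.347). Bulbectomy and sham libraries come from different mice, and what the equal numbers mark was not tested.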

Additional observations from a re-analysis of the deposited data

Results flagged for a closer look

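Within 8 of 128 combinations of a gene and a group of 4 or 5 libraries, 1 library lay further from the others than the 95% limit for a single outlying value allows; chance gives about 1 in 20. Cerebellar sham 1 accounted for 6 of them, each time as the highest library of its group. There the exchanger Slc8a1 measured 100.8 CPM (9.55 to 14.2 in the other 4), the R-type pore Cacna1e 46.0 CPM (5.34 to 7.60), the alpha2delta subunit Cacna2d1 37.0 CPM (2.88 to 3.89), the L-type pore Cacna1d 23.97 CPM (6.01 to 8.05), the exchanger Slc8a3 52.2 CPM (25.5 to 31.3) and the IP3 receptor Itpr2 18.6 CPM (9.28 to 10.9). In hippocampus, bulbectomy 1 was low for Cacna2d4, at 1.20 CPM against 2.33 to 2.49 CPM, and bulbectomy 4 was high for the pump Atp2b2, at 258.6 CPM against 198 to 204 CPM.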

How the results depend on the processing

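No gene of the 32 that was called in a comparison changed sign there under the alternatives tried; values that were not called could, as Cacna1g in hippocampus after bulbectomy (0.11, and -0.10 without sham 1 and sham 2). In hippocampus after bulbectomy, 9 of the 32 genes were lower with DESeq2, 2 with all libraries in 1 fit, and 0 to 7 when 1 library was left out. All genes called there numbered 954 with DESeq2, 444 with the length and GC trend removed, 348 without sham 1 and sham 2, and 30 to 477 when 1 library was left out. In cortex, 0 to 3 of the 32 were lower when 1 library was left out, and all genes called numbered 39 with DESeq2, 7 with RLE scaling, 24 with no filter, 7 with the trend removed, 5 in 1 fit of all libraries and 1 to 573 with a library left out. In cerebellum, they numbered 12 with DESeq2 and 0 to 36 with a library left out. With the replicate number as a block, 2 of the 32 were lower in hippocampus and 76 genes were called in all; all genes called were 13 in cortex and 0 in cerebellum, and between sham hippocampus and cortex 4 of the 32 were lower and 765 genes were called. For sham hippocampus against cortex the 32 held 4 lower genes with DESeq2, 1 with RLE scaling, 1 with no filter, 4 with the trend removed, 0 without sham 1 and sham 2, and 0 to 6 with a library left out; higher genes were 1 without sham 1 and sham 2 and 1 to 4 with a library left out. All genes called there were 895 with DESeq2, 852 with the trend removed, 768 in 1 fit of all libraries and 284 to 1101 with a library left out. For sham hippocampus against cerebellum, 5 to 11 of the 32 were lower with a library left out. With all 15 shams 9 of the 32 were lower, beside 12.9% of all genes. The share of all genes with a library left out is not given here for this comparison, so the range describes the list only. For the difference in effect, DESeq2 called 3 genes for hippocampus minus cortex (0 to 1 with a library left out of the edgeR fit) and 2 for hippocampus minus cerebellum (0 to 2). The cause of these changes was not tested. Leaving out a cerebellar bulbectomy library leaves 1, assumed to vary like the shams.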
